A study of Mus musculus with 4 samples.

Results

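Transcripts of splicing factors and heterogeneous nuclear ribonucleoproteins (hnRNPs) were compared between wild-type and Mtg16-null mice in lineage-negative bone marrow. The genes were those whose symbol begins with Sf3a or Sf3b, Snrp, Srsf, Hnrnp, Prpf, U2af or Lsm, on a probe with 1 gene symbol. A digit was required after Srsf, Prpf and Lsm. The name rule uses no values, but the set was chosen with earlier results of these data known. There were 63 such genes with 68 probes, of 13840 genes on the arrays. For each gene the probe with the highest mean signal over the 4 arrays was used, and 62 of the 63 lay in the brighter 50% of all probes, which is the set of 8444 genes that was tested. The gene outside it was Srsf12. Its probe read 214 and 203 signal units in wild type and 188 and 135 in null, inside the range of 94.5 to 310 units read by 3 Y-linked probes in these female mice, so its level was not resolved from background.

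The wild-type mice were C57BL/6 females and the Mtg16-null mice were females of a backcross into C57BL/6 labelled N4, all aged 8 to 12 weeks. Mtg16 (symbol Cbfa2t3) encodes a transcriptional corepressor of blood progenitors. Marrow of femur and tibia from 4 mice was pooled for each RNA preparation after magnetic depletion of cells with mature lineage markers, and 2 arrays of each genotype were hybridised, with both genotypes in each of 2 array lots. Separate pools for the 2 arrays of a genotype are not stated in the labels, so the spread behind a p-value is that of 4 arrays and may be purely technical. A backcross can leave part of the genome, above all around the deleted gene, from the founder strain. In bulk RNA of mixed cells, fewer cells of a type and less RNA per cell cannot be told apart.

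Removal of introns from pre-mRNA is carried out by the spliceosome, which is built from small nuclear ribonucleoprotein particles (snRNPs). Each snRNP holds a small nuclear RNA in a ring of Sm or Lsm proteins, the SF3 proteins and U2AF recognise the branch site and the 3′ splice site, and PRPF proteins assemble and rearrange the particles. SR proteins mostly promote the use of an exon by binding within it, while hnRNPs coat nascent RNA and often repress nearby splice sites. Most of these genes are expressed in all nucleated cells. SF3B1, SRSF2 and U2AF1 are recurrently mutated in human myelodysplastic syndromes.

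The arrays differed elsewhere, and those values are the setting for the splicing genes. Of 8444 genes tested, 10 passed limma at a Benjamini-Hochberg adjusted p under 0.05 (0.118% of those tested). The 11 late neutrophil markers had a median log2 difference (null minus wild type, as everywhere below) of -3.64, the 8 early granulocyte markers one of 1.84, and the 8 erythroid markers one of -1.16. The 8 stem and progenitor markers had a median of 0.41, with 5 higher and 3 lower in both lots (range -0.24 to 1.94). Their summed signal was 91226 and 93875 units in wild type and 124328 and 129348 in null. The median was -0.30 for 9 S phase genes, of which 7 were lower and 0 higher in both lots. For 11 genes of G2 and M phase it was -0.11, with -0.20 in lot 1 and 0.03 in lot 2. Of these, 5 were lower and 2 higher in both lots. The summed signal of the 12 G2 and M phase genes with a probe was 2252589 and 2304832 units in wild type. In null it was 2271081 and 2505130. Kit, the stem cell factor receptor of progenitors, read 34022 to 47408 units on the 4 arrays (log2 difference -0.19). Cd3e, a T cell receptor subunit, read 120 to 325, but not all mature cell markers were dim. Of 8 mature T, B and plasma cell markers with a probe, 3 were among the genes tested. The summed signal of that list was 151630 and 111038 units in wild type and 120717 and 96202 in null. Jchain alone read 147256 and 105049 units in wild type and 117424 and 92758 in null. The Cbfa2t3 probe was not lower in null (log2 difference 0.24, limma adjusted p = 0.702). Where that probe lies relative to the deletion is not known here, so it checks the labels in neither direction.

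Measured differences in splicing factor and hnRNP transcripts between the genotypes were small. None of the 62 tested passed limma over all genes (smallest adjusted p = 0.235). The median log2 difference was -0.074, with a range from -0.60 (Srsf10) to 0.30 (Prpf39), beside a median of -0.019 over all genes tested. Taken without sign, the median difference was 0.10 for the splicing genes, or 1.07-fold, and 0.28 for all genes tested, or 1.21-fold. Among the 4967 genes on the brighter 25% of probes it was 0.21, and for the 57 splicing genes among them 0.10.

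At an unadjusted limma p under 0.05, 0 splicing genes were higher in null and 1 was lower, Srsf10, beside 9.65% and 6.83% of all genes tested. A mean difference of at least 1.5-fold in either direction was reached by 1 of 62, again Srsf10, beside 23.4% of all genes. None reached 1.5-fold in the same direction in both lots, beside 8.54% higher and 5.76% lower over all genes. The plot of sizes gives these distributions in full. On the brighter 25% of probes, a mean difference of at least 1.5-fold was reached by 15.6% of all genes and by 1 of 57 splicing genes.

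**Figure D1:**
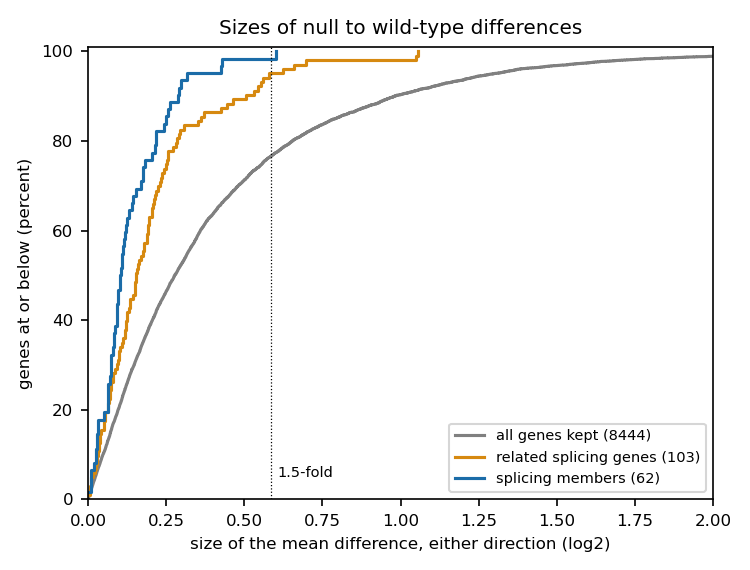
Cumulative percentage of genes (vertical) against the size of the null to wild-type difference in either direction on the log2 scale (horizontal, drawn to 2) for 62 splicing genes, 103 related splicing genes and all 8444 genes tested; the dotted line marks 1.5-fold. The line of the splicing genes lies to the left, with 1 gene beyond 1.5-fold, and the line of all genes has 23.4% beyond it.

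How firmly a difference was bounded varied between genes. The 95% interval of the moderated fit lay inside a 2-fold change in either direction for 53 of the 62 splicing genes (49.6% of all genes tested), and inside 1.5-fold for 15 (7.72% of all). Those 15 were Hnrnpab, Hnrnpl, Hnrnpr, Hnrnpu, Lsm8, Lsm14a, Prpf3, Prpf8, Sf3b2, Sf3b3, Snrpa1, Snrpb, Snrpb2, Snrpd3 and Srsf2. The 9 whose interval reached beyond 2-fold were Hnrnph1, Lsm4, Prpf39, Prpf40b, Sf3b4, Snrpc, Srsf1, Srsf10 and U2af1l4. For these genes a 2-fold difference is within the error of a fit without the array lot. A lot shift shared by both genotypes counts as error in that fit and widens the interval. Within the lots Prpf40b had -0.22 and -0.22, while Srsf1 had -0.37 and 0.80. Intervals with the lot as a block are not given here. Bright probes had narrower intervals in general. On the brighter 25% of probes the interval lay inside 2-fold for 65.9% of all genes and 86.0% of the 57 splicing genes. Inside 1.5-fold the shares there were 11.6% and 24.6%.

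**Figure D2:**
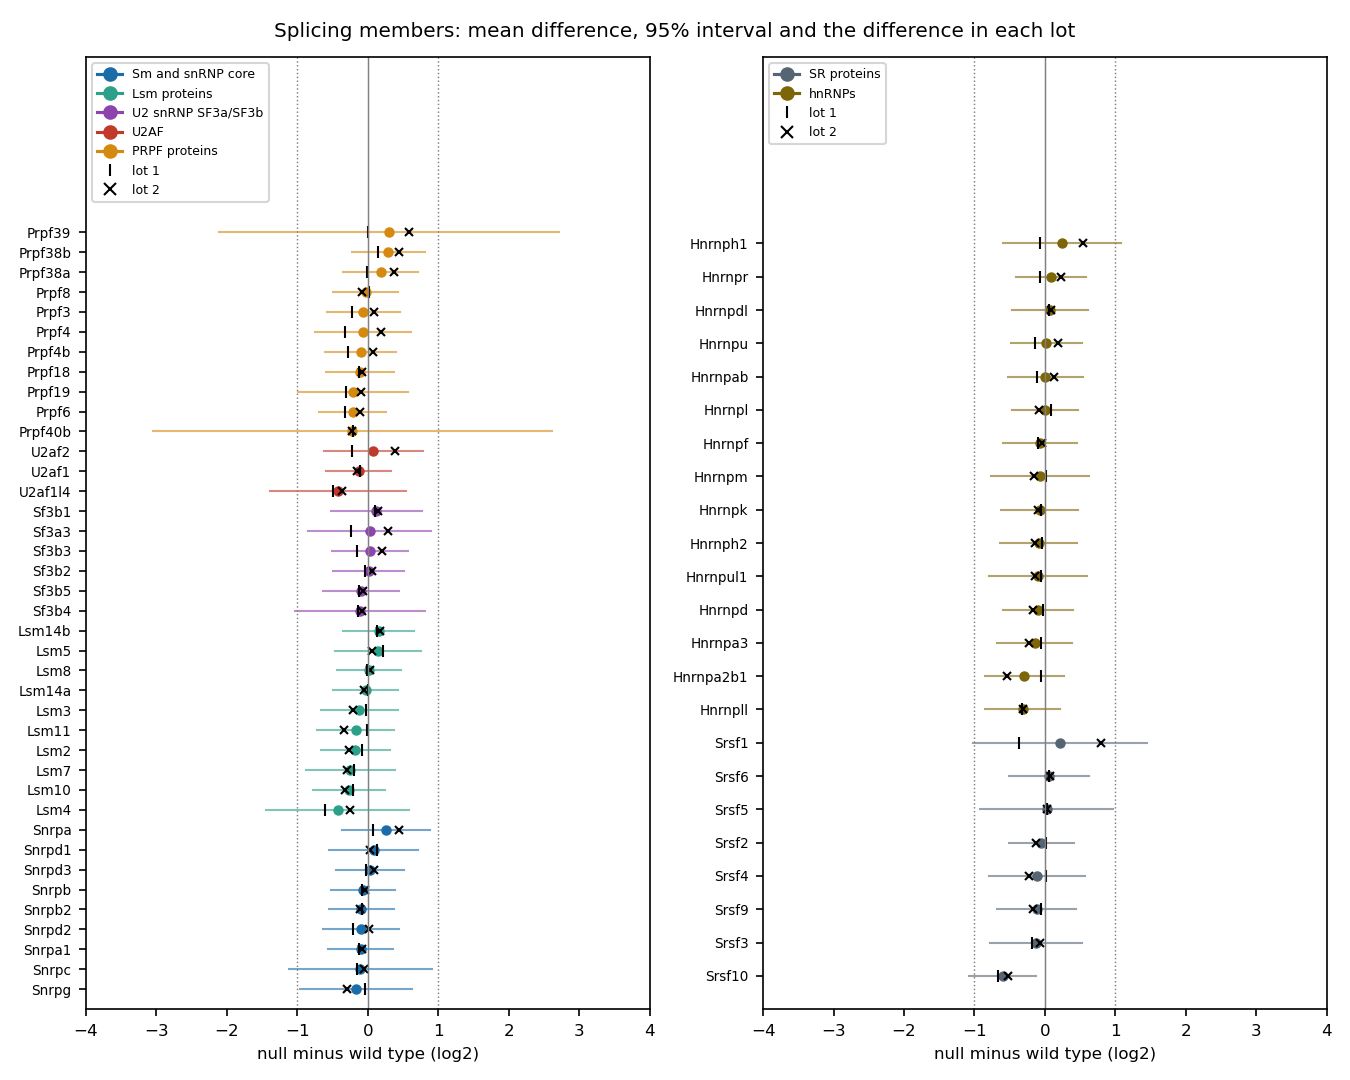
Null minus wild type on the log2 scale for each of the 62 tested splicing genes, by role (colours). Circles are means over both lots, lines the 95% intervals of limma's moderated fit, bars and crosses the difference in lot 1 and lot 2; dotted lines mark a 2-fold change. Means run from -0.60 for Srsf10 to 0.30 for Prpf39, and Prpf39 and Prpf40b have the widest intervals.

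The genes leaned slightly downward. Both lots had null below wild type for 31 of 62, beside 36.8% of all genes tested, and null above wild type for 10 (16.1%, beside 33.6%), so that the sign agreed for 41 (66.1%, beside 70.5%). The median was -0.066 in lot 1 and -0.070 in lot 2. Both null arrays lay below both wild-type arrays for 11 genes (17.7%, beside 23.2% of all genes) and above both for 1, Prpf38b (1.61%, beside 22.6%). The 11 were Hnrnpa2b1, Hnrnpll, Lsm2, Lsm10, Lsm11, Prpf6, Snrpa1, Snrpb, Snrpb2, Srsf10 and U2af1. None of these 12 genes passed limma over all genes tested. On the brighter 25% of probes, 47.4% of 57 splicing genes were lower in both lots, beside 41.0% of all genes there. Higher in both lots were 17.5%, beside 34.4%.

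**Figure D3:**
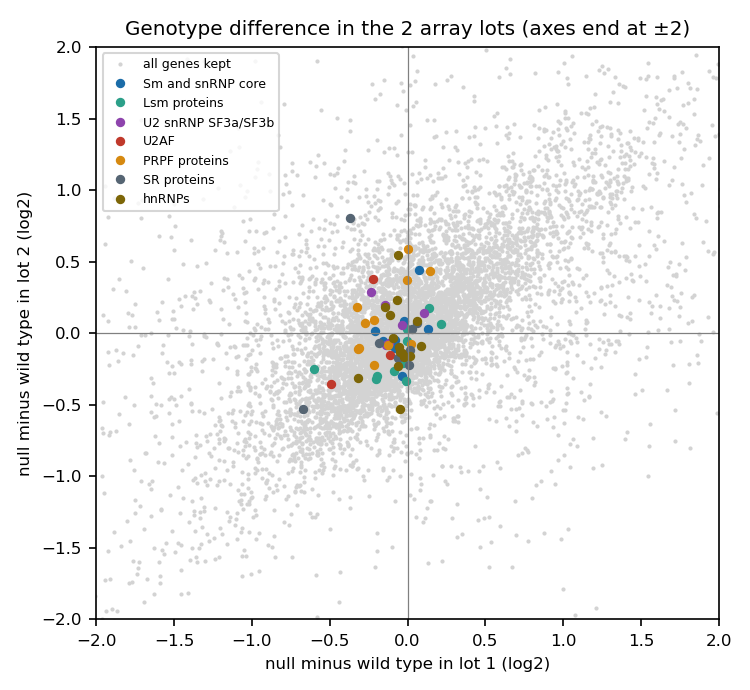
Null minus wild type in lot 1 (horizontal) against lot 2 (vertical) on the log2 scale, for all 8444 genes tested (grey, axes end at 2 either way) and the 62 splicing genes coloured by role. The splicing genes sit near the origin, and Srsf10 at -0.67 and -0.53 is the one farthest into the lower left.

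The Sm proteins form the ring around the U1, U2, U4 and U5 RNAs. Of the 9 genes tested with names in Snrp, 5 were lower and 2 higher in both lots, with a median of -0.09 and a range of -0.17 to 0.26. Snrpb, which encodes the SmB and SmB′ proteins of the ring, read 473146 and 463815 units in wild type and 446707 and 449309 in null. Both null arrays were the lower, by a log2 difference of -0.06 (95% interval -0.52 to 0.39, limma adjusted p = 0.908). Snrpg, the SmG gene and the one of this group with the highest probe signal, had a difference of -0.17 (adjusted p = 0.855). Snrpd1, the SmD1 gene, had a difference of 0.08 and Snrpa1, a protein specific to the U2 particle, one of -0.10.

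Snrpa, which encodes a protein of the U1 particle, differed between the lots. It read 17234 and 12647 units in wild type and 18121 and 17140 in null. The wild-type array of lot 2 stood below the other three, and the difference was 0.07 in lot 1 and 0.44 in lot 2 (mean 0.26, adjusted p = 0.685).

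Lsm proteins make a related ring, which in the nucleus holds the U6 RNA and in the cytoplasm acts in mRNA decay. Of 10 genes taken by name, not all of them subunits of this ring, 7 were lower and 2 higher in both lots. The median was -0.15, and Lsm14a, 1 of the 7, had -0.03. Lsm4, a subunit of both rings, read 65436 and 36991 units in wild type and 43082 and 31044 in null. The wild-type array of lot 1 was the highest and the groups overlapped, so that the difference of -0.43 had an interval of -1.44 to 0.59 (adjusted p = 0.676). It was -0.60 in lot 1 and -0.25 in lot 2.

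Lsm10, which with Lsm11 replaces 2 Sm proteins in the U7 particle that trims histone mRNA, read 23480 and 21767 units in wild type and 20373 and 17456 in null. The groups did not overlap, and the difference was -0.26 (SE 0.19, adjusted p = 0.594). Lsm11 itself had -0.01 in lot 1 and -0.34 in lot 2. Lsm7 and Lsm2, further ring subunits, had differences of -0.25 and -0.18. Those higher in both lots were Lsm5, a ring subunit, at 0.14, and Lsm14b, whose product acts in cytoplasmic RNA granules and not in the spliceosome, at 0.15.

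The SF3a and SF3b proteins belong to the U2 particle and grip the branch site. All 6 genes lay between -0.11 and 0.12, with a median of 0.02. Sf3b1, the largest subunit, read 101977 and 127805 units in wild type and 109598 and 140863 in null. Null was higher in both lots, by 0.10 and 0.14, while both lot 2 arrays were higher than both lot 1 arrays. The mean difference was 0.12 (95% interval -0.53 to 0.77, adjusted p = 0.873). Sf3b5, a small subunit, had a difference of -0.09. The 2 probes of Sf3b4, which binds RNA upstream of the branch site, gave -0.11 and -0.58, the second with -0.41 and -0.75 in the lots, so the value for this gene depends on the probe.

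U2AF binds the 3′ splice site as a large (U2af2) and a small subunit (U2af1). U2af1 read 366842 and 350852 units in wild type and 339445 and 315899 in null, lower on both null arrays by -0.13 (95% interval -0.60 to 0.34, adjusted p = 0.790). U2af2 was at -0.22 in lot 1 and 0.38 in lot 2. U2af1l4, which encodes an alternative small subunit (U2AF26), read 10949 and 6777 units in wild type and 7776 and 5283 in null. In each lot the null array was lower, by -0.49 and -0.36, but the groups overlapped because lot 2 was lower in both genotypes. The difference of -0.43 had an adjusted p of 0.659. With the lot as a block its unadjusted limma p was 0.0442 (adjusted p = 0.195), which brought the splicing genes under 0.05 to 2, both lower, beside 13.3% higher and 11.0% lower over all genes in that fit.

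The PRPF group covers proteins of several stages. Of its 11 genes, 4 were lower and 2 higher in both lots, with the median at -0.07. Prpf8, the large U5 protein at the heart of the spliceosome, read 109598 and 109638 units in wild type and 111423 and 103822 in null, a difference of -0.03 (95% interval -0.49 to 0.44, adjusted p = 0.966). Prpf6, which bridges the U5 and U4/U6 particles, read 3245 and 3030 units in wild type and 2601 and 2802 in null. Its groups did not overlap and the difference was -0.22 (adjusted p = 0.646). Prpf19, a ubiquitin ligase of the complex that activates the spliceosome, had a difference of -0.21. Prpf38b, a homologue of the tri-snRNP-associated Prpf38a, read 16787 and 13946 units in wild type and 18513 and 18881 in null. It was the 1 splicing gene with both null arrays above both wild-type arrays, by 0.29 (95% interval -0.23 to 0.81, adjusted p = 0.559).

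Prpf39 and Prpf40b, both relatives of yeast proteins of the U1 particle, stood apart by array lot. Prpf40b read 1319 units in lot 1 and 5512 in lot 2 of wild type, and 1137 and 4727 in null. Lot 2 was thus 4.18-fold higher in wild type and 4.16-fold higher in null, while the genotype difference was -0.22 in both lots. Prpf39 read 2205 and 5939 units in wild type and 2213 and 8944 in null, so lot 2 was 2.69-fold and 4.04-fold higher. Its genotype difference was 0.005 in lot 1 and 0.59 in lot 2. With the lot as a block the unadjusted limma p was 0.160 for Prpf40b and 0.258 for Prpf39.

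Over all 62 splicing genes, the mean difference between lots was larger than the mean difference between genotypes for 45 (72.6%, beside 48.1% of all genes tested). Their lot differences were not larger than those of other genes. Without sign, the median lot difference was 0.20, beside 0.27 for all genes tested, and the median genotype difference 0.10, beside 0.28. The lots differed in the same direction in both genotypes for 48 (77.4%, beside 71.6%), and by at least 1.5-fold the same way for 4 (6.45%, beside 7.57%), which were Prpf39, Prpf40b, Snrpc and Srsf5. Srsf5, an SR protein, was 1.53-fold higher in lot 2 in each genotype and had a genotype difference of 0.03. Across these genes the lot difference in wild type and that in null had a Pearson r of 0.84, given as a description over 62 genes that share the same 4 arrays. Whether lots also differ in their mice was not given in the labels, so array lot and pool cannot be told apart.

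**Figure D4:**
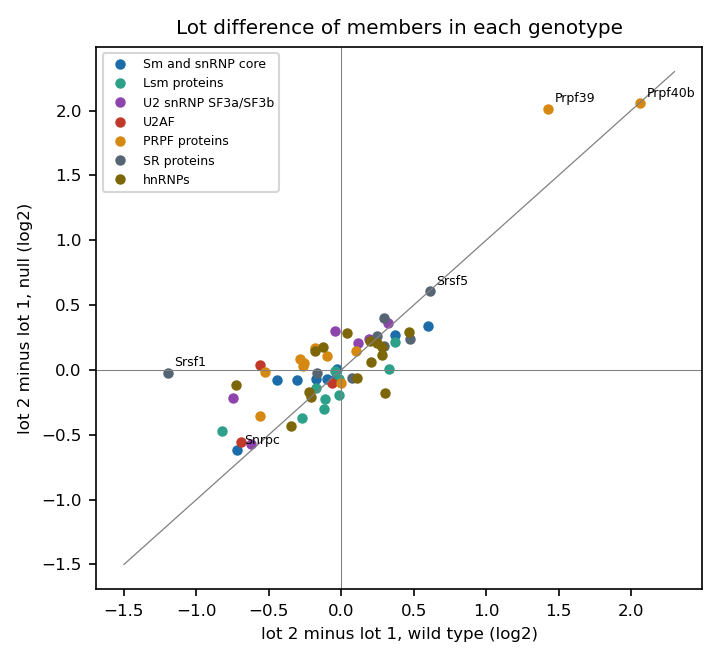
Lot 2 minus lot 1 on the log2 scale in wild type (horizontal) and null (vertical) for the 62 splicing genes, coloured by role; the diagonal marks equal values. Prpf40b and Prpf39 lie far to the upper right, with lot 2 higher by 2.06 and 1.43 in wild type, and Srsf1 lies far off the diagonal at -1.19 and -0.02.

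SR proteins carry arginine and serine repeats and act mainly through exonic enhancers. Of the 8 genes tested, 3 were lower and 2 higher in both lots, with a median of -0.08. Srsf2 read 191140 and 200964 units in wild type and 193521 and 184873 in null (difference -0.05, 95% interval -0.51 to 0.41, adjusted p = 0.929). Srsf3, a small SR protein that also acts in mRNA export, gave -0.13 and -0.12 on its 2 probes. Srsf6 had a difference of 0.06. Srsf1, a founding member of the SR family, read 5508 and 2407 units in wild type and 4255 and 4196 in null. The null arrays lay between the 2 wild-type arrays, and the difference turned from -0.37 in lot 1 to 0.80 in lot 2 (adjusted p = 0.884).

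Srsf10 was the splicing gene with the largest difference in these data. Its product is an SR protein that represses splicing when dephosphorylated and otherwise regulates exon choice. The probe read 38793 and 34521 units in wild type and 24342 and 23921 in null. Both null arrays were below both wild-type arrays and lay close together, and the means were 36657 ± 3021 and 24131 ± 298 units (SD, n = 2). This is 1.52-fold lower, a log2 difference of -0.60 (SE 0.17, 95% interval -1.08 to -0.12), with -0.67 in lot 1 and -0.53 in lot 2. It did not pass limma over all genes (unadjusted p = 0.0253, adjusted p = 0.235), and with an array left out the difference ran from -0.68 to -0.52.

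The second Srsf10 probe gave a smaller value. It read 6397 and 6389 units in wild type and 4967 and 6079 in null, a difference of -0.22 with -0.36 in lot 1 and -0.07 in lot 2. Its null arrays too were both below both wild-type arrays. Which transcripts each probe detects is not known here, and with both probes averaged no splicing gene had an unadjusted limma p under 0.05.

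The stretches just upstream of 3 genes are shown because these genes stood at the edges of the group: Srsf10 had the lowest difference, U2af1l4 was the other gene under 0.05 with the lot block, and Prpf38b was the 1 gene whose null arrays were both above wild type. Each is the 250 bases before the RefSeq start in assembly GRCm38.p6, 5′ to 3′ on the gene's strand, at chr4:135855821-135856070 (plus strand), chr7:30563090-30563339 (plus strand) and chr3:108911730-108911979 (minus strand). Capitals mark a GC box, spelled GGGCGG, or a CCAAT box on either strand. An extended spelling of ETS sites, CCGGAAG, and the TATA box, spelled TATAAA, were also searched. Shorter or other ETS spellings were not searched, so a stretch without CCGGAAG may still hold an ETS core.
Srsf10: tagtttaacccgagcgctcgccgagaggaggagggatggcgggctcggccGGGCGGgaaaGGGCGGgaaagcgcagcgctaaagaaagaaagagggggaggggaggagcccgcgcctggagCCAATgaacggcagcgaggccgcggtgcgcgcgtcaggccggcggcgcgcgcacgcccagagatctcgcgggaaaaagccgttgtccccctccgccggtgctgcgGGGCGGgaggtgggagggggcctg
U2af1l4: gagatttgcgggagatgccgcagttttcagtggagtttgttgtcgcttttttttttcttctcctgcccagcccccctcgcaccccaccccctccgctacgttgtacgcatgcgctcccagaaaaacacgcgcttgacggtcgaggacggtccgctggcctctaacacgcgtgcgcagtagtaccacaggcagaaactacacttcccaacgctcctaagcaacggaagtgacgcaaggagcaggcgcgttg
Prpf38b: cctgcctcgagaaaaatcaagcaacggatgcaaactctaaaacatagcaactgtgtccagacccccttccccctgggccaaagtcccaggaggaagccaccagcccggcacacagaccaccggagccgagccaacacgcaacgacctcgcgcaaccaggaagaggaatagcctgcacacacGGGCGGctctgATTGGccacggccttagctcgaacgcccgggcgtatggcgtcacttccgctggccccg

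The Srsf10 stretch held 3 GC boxes and 1 CCAAT box, that of Prpf38b 1 of each, and that of U2af1l4 none of the 4 spellings. G and C made up 72.0% of the stretch for Srsf10, 62.0% for Prpf38b and 58.0% for U2af1l4. The median was 59.2% over the tested genes with an entry and 59.6% over the splicing genes. The stretches held 33 CpG dinucleotides for Srsf10, 19 for Prpf38b and 22 for U2af1l4. Of the 63 splicing genes, 55 had an entry in the RefSeq promoter table, and the first listed start was used for each. Their median was 21 CpG in 250 bases, beside 15 for the 6958 tested genes with an entry and 6 for all 27025 genes in the table. A GC box was found in 67.3% of the splicing genes, 56.5% of the tested genes and 32.9% of all. The shares were 47.3%, 37.0% and 34.5% for CCAAT, 23.6%, 14.0% and 7.05% for CCGGAAG, and 9.09%, 7.78% and 13.0% for TATAAA. None of the 4 spellings contains another. A match is a description of letters and not a binding site.

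The hnRNPs were the largest group, with 15 genes tested, of which 8 were lower and 1, Hnrnpdl (0.07), was higher in both lots. Their median was -0.07 and their range -0.32 to 0.24. Hnrnpll, which regulates exon skipping in the Cd45 transcript of lymphocytes, read 50108 and 43299 units in wild type and 40153 and 34797 in null. The groups did not overlap and both lots gave -0.32, but the difference did not pass (adjusted p = 0.523, 95% interval -0.85 to 0.22). Hnrnpa2b1, an abundant exon repressor and RNA transport factor, read 328383 and 405159 units in wild type and 317289 and 279828 in null. Its null arrays were both lower, with -0.05 in lot 1 and -0.53 in lot 2 (adjusted p = 0.590).

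Some hnRNPs changed sign with the lot or the probe. Hnrnph1, which binds runs of G, read 36247 and 21941 units in wild type and 34706 and 32035 in null, with -0.06 in lot 1 and 0.55 in lot 2. Hnrnpa3, a relative of Hnrnpa2b1, gave -0.15 on the chosen probe and 0.24 on the other, each with the same sign in both lots. Hnrnpl, which binds CA repeats, had a mean difference of 0.00, from 0.09 in lot 1 and -0.09 in lot 2. Probes annotated to Hnrnpa1 carry a second gene symbol as well and were outside the rule.

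**Figure D5:**
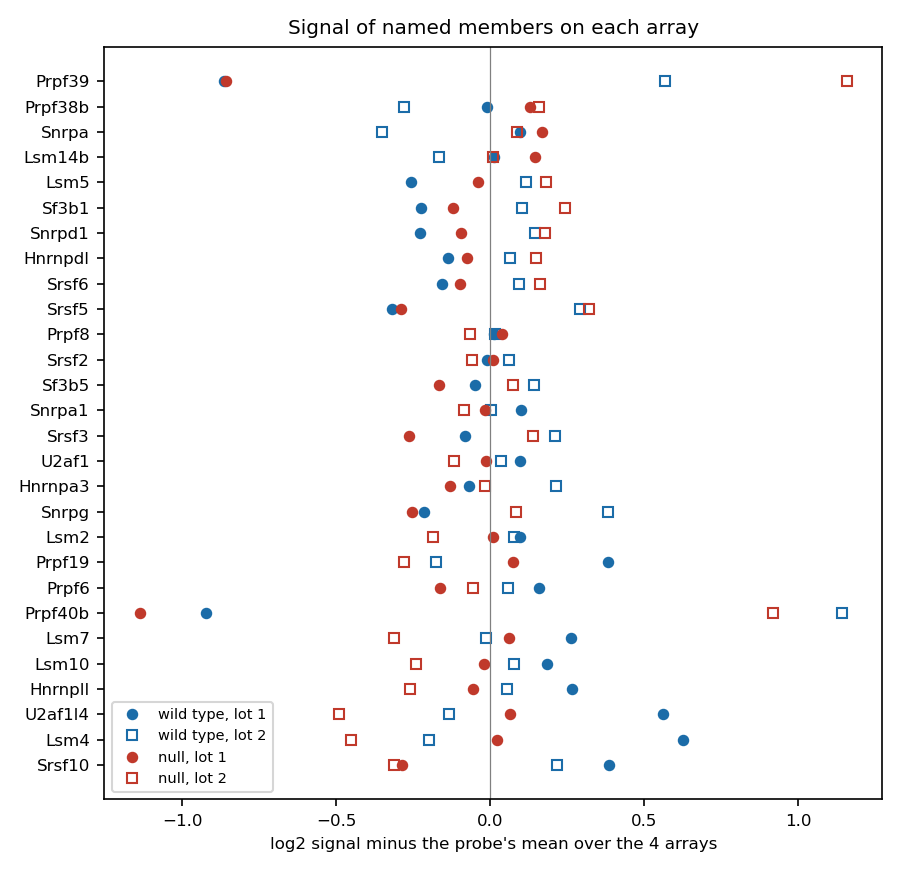
Signal of 28 named splicing genes on each array, as log2 signal minus the mean of that probe over the 4 arrays (horizontal), sorted by genotype difference; blue is wild type, red is null, filled circles lot 1 and open squares lot 2. For Srsf10 both red points lie left of both blue points, and for Prpf39 and Prpf40b the circles and squares separate by lot.

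Other genes of the splicing machinery, taken from lists by symbol, gave a similar picture with a few larger differences. Of 103 such genes tested, 0 passed limma over all genes (smallest adjusted p = 0.104). At an unadjusted p under 0.05, 2 were higher and 1 lower, which is fewer in each direction than the 9.65% and 6.83% of all genes. The median was -0.03, and without sign 0.15. By list, the medians were -0.08 for 38 other snRNP and spliceosome proteins, -0.09 for 11 spliceosome helicases, -0.19 for 13 snRNP assembly factors, -0.07 for 9 exon junction and export genes, 0.16 for 8 SR kinases and SR-like regulators, and 0.13 for 24 other splicing regulators.

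Celf2, a regulator of alternative splicing known from lymphoid and neural cells, had the largest increase among these. It read 46692 and 48578 units in wild type and 97899 and 99102 in null, without overlap. The difference was 1.05, or 2.07-fold, with 1.07 in lot 1 and 1.03 in lot 2 (limma adjusted p = 0.104). Its relative Celf1 went the other way without passing, at -0.53 (adjusted p = 0.459).

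Srpk2, a kinase that phosphorylates SR proteins, read 8202 and 9007 units in wild type and 13373 and 13784 in null, 1.58-fold higher (log2 difference 0.66, adjusted p = 0.202). Srpk3, a relative known from muscle, had a difference of -1.06 (adjusted p = 0.296) that was -0.44 in lot 1 and -1.67 in lot 2, and its lot 2 null array, at 211 units, was as low as the Y-linked probes. Among the remaining lists, Gemin8 of the complex that loads Sm rings had a difference of -0.70 (limma adjusted p = 0.572). Dhx15, of the spliceosome helicases, had -0.58 (0.510) and Aqr, an intron-binding helicase, -0.56 (0.392). Taf15, of the other splicing regulators, had -0.55 (0.538) and Phf5a, a partner of the SF3b proteins, -0.45 (0.470). Mbnl2, a regulator of alternative exons, had 0.62 (0.440) and Rbm8a, a core exon junction protein, 0.54 (0.663). The summed signal of the 11 late neutrophil markers was 1369465 and 1485619 units in wild type and 158427 and 148105 in null, with 0 markers at 0. That of the 8 early granulocyte markers was 1604549 to 1693183 in wild type and 3465698 to 4118902 in null. The part of these shifts in the differences of Srsf10, Celf2 and Srpk2 was not tested.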

How the data were processed

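Expression was measured on single-colour Applied Biosystems arrays with digoxigenin-labelled cRNA, per the labels' protocols, in 2 wild-type and 2 Mtg16-null samples. The authors deposited linear intensity for 33012 probes. Sorted values of the arrays differ by at most 0.286%, so the values had been quantile normalized before they were deposited. The sources used here do not name the scanner software or background correction. Precision is limited by the number of arrays.

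The platform annotation gave probe names: 14411 have 1 symbol, 247 several and 18354 none. Signals under the 1st percentile (75.8 units) were raised to it before log2. Of each gene the probe with the highest mean signal was taken, and genes in the brighter 50% of probes were tested in R 4.3.3 by limma 3.58.1 (eBayes after lmFit, genotype as the only term, 2 residual and 2.11 prior degrees of freedom). P-values were adjusted by Benjamini-Hochberg over all 8444 genes, and intervals use the moderated standard error. The fit was tested on simulated data without a lot effect, where the planted changes were larger than any splicing difference here. That test does not speak to differences of the size reported. The series text states that the replicate number is the array lot, so arrays pair by lot, and deviations of same-lot arrays from their genotype means correlated at 0.50 over genes. A fit with the lot as a block was an alternative, with 11 others.

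Named genes were the 10 splicing genes higher and the 12 lowest by the smaller of the within-lot differences with 1 sign in both lots, the gene with the highest probe signal in each of 7 groups, Sf3b1, Srsf2, U2af1 and Prpf8, and up to 2 per direction of each of 6 related lists. Other genes were named after their values were seen, for lot or probe disagreement, overlap, or interval. The members and lists were chosen with earlier results of these data known. Promoters come from RefSeq (GRCm38.p6). Figures were drawn with matplotlib 3.10.9.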

Additional observations from a re-analysis of the deposited data

How the results depend on the processing

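No splicing gene reached a limma adjusted p under 0.05 in any of the 12 alternatives, and the smallest was 0.104, with the brighter 25% of probes. At an unadjusted p under 0.05 the number lower was 2 with the lot as a replicate block, 0 without the filter on dim probes and 0 with the mean of all kept probes of a gene, and with an array left out it ran from 0 to 1, as did the number higher (0 to 1, Srsf1 without wild-type array 1). Over all genes the count of 10 became 0 with the lot block, 0 without the filter, 291 with the brighter 25% of probes, 295 with a variance trend and 0 with any 1 array left out (678 to 1437 genes at an unadjusted p under 0.05); the lone array of a group is then assumed to vary like the other group. The median of the splicing genes stayed below 0 in each setting, between -0.067 and -0.029 with an array left out and at -0.079 with cyclic loess. Without wild-type array 2 it was -0.033, beside -0.033 over all genes tested, so no lean relative to all genes was left there. Of 334 alternative values of the 28 named genes, 310 kept their sign and 24, of 14 genes, did not. Hnrnpa3 was 0.045 with the mean of its probes. The other reversals came with an array left out, where values ran from -0.059 to 0.30 for Sf3b1, -0.045 to 0.33 for Lsm5, -0.038 to 0.19 for Hnrnpdl, -0.066 to 0.19 for Srsf6, -0.10 to 0.27 for Snrpd1, -0.28 to 0.33 for Srsf5, -0.71 to 1.31 for Prpf39, -0.49 to 0.073 for Prpf19, -1.25 to 0.81 for Prpf40b, -0.21 to 0.027 for Sf3b5, -0.47 to 0.13 for Snrpg, -0.33 to 0.076 for Srsf3 and -0.078 to 0.024 for Prpf8. Leaving out 1 array sets 1 lot of a genotype against both lots of the other, so a difference between lots enters these values. With 2 arrays a genotype the signs of differences this small are not settled.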
